A study of Homo sapiens with 36 samples.

Results

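LNCaP is an established human prostate cancer cell line, derived from a lymph node metastasis, whose cells depend on androgen. In these cells 55 genes that androgen is known to switch on, the kallikreins left aside, were followed through treatment with inhibitors of the cell cycle kinase CDK4. The members were listed by gene name with earlier results of these data known, and each of the 55 was found by its Ensembl identifier among the 29872 genes of the table of normalised counts. All 55 passed the filter on low values at both time points. Cells received vehicle, AU2-94 at 1 or 2 µM, atirmociclib at 1 or 2 µM, or ribociclib at 2 µM, for 24 h or for 72 h. AU2-94 and atirmociclib are selective for CDK4, and ribociclib inhibits CDK4 and CDK6. In the kinase assays of the paper atirmociclib was the less selective, as it inhibited CDK1, CDK2, CDK6, CDK7 and CDK9 more potently than AU2-94. Each of the 12 groups had 3 biological replicates, which gave 36 RNA-seq libraries. The sample labels also give vehicle a dose of 2 µM, and they name no androgen or antiandrogen in any group. By the paper's methods LNCaP cells were maintained in medium with foetal bovine serum, whose androgen content is not given. Wells for 72 h were seeded at a lower density, so time and seeding density cannot be told apart. The line is 1 established culture, so the replicates describe repeat treatments of the same cells.

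Androgens are steroid hormones that change transcription in the cells that respond to them. They act through DNA elements made of pairs of the hexamer AGAACA, mostly in enhancers far from gene starts. In the prostate lumen the genes they induce supply secreted and surface proteins, the lipid and polyamine metabolism of a secretory cell, the glycosylation and trafficking machinery that exports protein, and regulators that feed back on androgen signalling.

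The total normalised count lay between 20675156 and 22692555 per library, 19708 to 21405 genes were above 0, and mitochondrial genes held 6.34% to 8.66% of the total. That share was highest with atirmociclib at 2 µM, at 7.28% to 7.70% against 6.45% to 6.60% in vehicle at 24 h and 8.33% to 8.66% against 6.76% to 7.42% at 72 h, and its part in the results was not tested. The 9 luminal markers were all abundant, among them KRT18 at 6399 to 8711 normalised counts over the 36 libraries, with a summed level that was higher under treatment, at 134970 to 144860 against 103000 to 107840 in vehicle at 24 h and 141760 to 168140 against 102870 to 105630 at 72 h. Of the basal markers KRT5, TP63 and KRT15 were at 0 in 35, 32 and 26 libraries, and KRT14 was at 4.35 to 88.6 and DST at 321 to 1082. Of the neuroendocrine markers CHGA was at 0 in 30 libraries and SYP was at 6.61 to 36.005. The summed level of the 5 basal markers was 664 to 920.0 in vehicle at 24 h and 345 to 716 in treated libraries, and at 72 h it was 749 to 1107 and 690 to 1068. That of the 5 stromal markers was 405 to 532 in vehicle and 219.7 to 427 in treated libraries at 24 h, and 514 to 661 and 529 to 699 at 72 h. Of these COL1A1 was at 194 to 644, COL3A1 at 5.45 to 36.9, PDGFRB at 5.21 to 48.7, and COL1A2 and DCN at 0 in 34 and 31 libraries. Their part in the results was not tested. In a bulk sample of this kind fewer cells of a type and less RNA per cell cannot be told apart.

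Start-site windows were read for the members because androgen response elements are built from the hexamer AGAACA. Windows from 250 bases before to 50 bases after an annotated start were given for 44 of the 55 members in RefSeq (GRCh38.p14), 84 windows in all. AGAACA, read on either strand, lay in 9 of these 84 windows (10.7%) and in 5192 of all 35116 windows (14.8%). By gene it was found for 8 of the 44 members (18.2%), STK39, TRPM8, LIFR, IQGAP2, FKBP5, SGK1, TSC22D1 and PMEPA1, and for 17.5% of all genes. The full inverted repeat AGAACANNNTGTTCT was in 0 of the 84 windows and in 1 of all 35116. The E-box CACGTG lay in 15.5% of member windows and 7.26% of all windows, and the forkhead core TGTTTAC in 1.19% and 3.42%, where the median GC content was 66.3% and 58.7%. The 4 sequences here belong to members with the hexamer whose values are given library by library, and they run 5′ to 3′ along the gene from 250 bases before the start to 30 bases after it, with the hexamer, on the gene's strand or its opposite, in capitals. FKBP5 is at chr6:35728554-35728833 on the minus strand, SGK1 at chr6:134177832-134178111 on the minus strand, STK39 at chr2:168247566-168247845 on the minus strand and TRPM8 at chr2:233979899-233980178 on the plus strand. The windows of SGK1 and TRPM8 belong to starts inside the annotated gene.
FKBP5: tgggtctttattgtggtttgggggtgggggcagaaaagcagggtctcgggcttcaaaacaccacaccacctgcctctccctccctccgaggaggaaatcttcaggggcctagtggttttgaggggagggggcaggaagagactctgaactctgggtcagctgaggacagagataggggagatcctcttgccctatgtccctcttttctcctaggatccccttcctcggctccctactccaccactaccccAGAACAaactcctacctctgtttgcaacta
SGK1: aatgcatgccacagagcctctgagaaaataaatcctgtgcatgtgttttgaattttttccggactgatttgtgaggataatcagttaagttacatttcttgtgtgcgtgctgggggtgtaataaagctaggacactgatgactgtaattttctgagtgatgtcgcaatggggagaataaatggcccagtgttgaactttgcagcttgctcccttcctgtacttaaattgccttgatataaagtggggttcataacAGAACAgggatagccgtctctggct
STK39: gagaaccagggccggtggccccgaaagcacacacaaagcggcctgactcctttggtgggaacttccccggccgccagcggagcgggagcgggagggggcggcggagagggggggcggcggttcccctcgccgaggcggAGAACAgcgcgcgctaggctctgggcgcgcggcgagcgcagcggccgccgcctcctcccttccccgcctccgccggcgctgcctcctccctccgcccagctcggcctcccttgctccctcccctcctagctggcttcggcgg
TRPM8: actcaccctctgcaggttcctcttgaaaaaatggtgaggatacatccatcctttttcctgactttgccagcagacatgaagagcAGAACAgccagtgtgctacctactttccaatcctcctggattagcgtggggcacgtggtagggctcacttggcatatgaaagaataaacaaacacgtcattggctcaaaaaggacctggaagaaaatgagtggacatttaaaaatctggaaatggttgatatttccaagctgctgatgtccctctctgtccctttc
In FKBP5 the hexamer began at base 1 of the transcript and in SGK1 at base 6, whereas in STK39 it began 112 bases and in TRPM8 166 bases before the start. These 4 members differed in how they moved, as the values given for each show: TRPM8 was higher in every treatment, FKBP5 and SGK1 depended on inhibitor and time, and STK39 moved in both directions.

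Most members rose at 24 h. A member passed where limma gave an adjusted p of at most 0.05, and it was called where its log2 fold change was also at least 1 in size. Fold changes are on the scale of log2(normalised count + 1). With AU2-94 at 1 µM 35 members were higher and 2 lower than in vehicle, where 14.3% and 13.5% of all tested genes were. With AU2-94 at 2 µM 35 were higher and 5 lower (all genes 16% and 14.9%). With atirmociclib the counts were 33 and 4 at 1 µM (16.6% and 15.4%) and 32 and 5 at 2 µM (18.6% and 16.2%), and with ribociclib 39 and 2 (16.8% and 15.2%). The median log2 fold change of the members was 0.31 with AU2-94 at 1 µM, 0.27 with AU2-94 at 2 µM, 0.27 with atirmociclib at 1 µM, 0.23 with atirmociclib at 2 µM and 0.38 with ribociclib, and that of all genes lay between -0.0032 and 0.0049. The same 30 members passed higher in all 5 treatments (all genes 9.2%), and 28 lay higher in each of the 15 treated libraries than in any vehicle library (11%). Called members numbered 4 with AU2-94 at 1 µM, 5 with AU2-94 at 2 µM, 3 with atirmociclib at 1 µM, 3 with atirmociclib at 2 µM and 6 with ribociclib, all of them higher, where 1.61%, 2.08%, 1.5%, 1.26% and 1.39% of all genes were called higher and 2.4%, 2.94%, 4.22%, 4.82% and 3.66% lower. SLC38A2 was lower in all 5 (all genes 7.82%), and SLC38A2 and HPGD lay lower in the 15 treated libraries than in any vehicle library (10.7%). Contrasts of a time point share the same 3 vehicle libraries and are not independent of each other. The count of 30 was 23 to 30 with 1 library left out. It was 22 with equal library totals, 26 with quantile normalisation and 25 without a filter, without the trend or with only the groups compared. With equal totals, higher and lower members were 32 and 5 with each dose of AU2-94 and 35 and 3 with ribociclib. Atirmociclib then gave 29 and 6 at 1 µM and 26 and 7 at 2 µM. With quantile normalisation they were 38 and 1 with AU2-94 at 1 µM and 27 and 4 with atirmociclib at 2 µM. The count of 2 lower with AU2-94 at 1 µM became 0 to 3 and moved by over 1.5 times without replicate 3 of that group or replicate 1 or 3 of vehicle, and the count of 2 with ribociclib became 0 to 2 and did so without its replicate 1 or 2 or vehicle replicate 2 or 3.

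At 72 h fewer members were higher with AU2-94 than at 24 h. With AU2-94 at 1 µM 19 were higher and 8 lower (all genes 15.4% and 17%), and at 2 µM 22 and 5 (14.2% and 15.3%). With atirmociclib 24 were higher and 5 lower at 1 µM (20% and 19.8%) and 31 and 4 at 2 µM (20.9% and 19.6%), and with ribociclib 33 and 3 (15.5% and 15.4%). The median log2 fold change of the members was 0.10 with AU2-94 at 1 µM, 0.12 with AU2-94 at 2 µM, 0.15 with atirmociclib at 1 µM, 0.29 with atirmociclib at 2 µM and 0.36 with ribociclib, and that of all genes lay between -0.0083 and 0.0059. Passed higher in all 5 treatments were 19 members (all genes 8.54%), and 19 lay above vehicle in each of the 15 treated libraries (9.96%). Called members, all higher, numbered 4 with AU2-94 at 1 µM, 4 with AU2-94 at 2 µM, 6 with atirmociclib at 1 µM, 9 with atirmociclib at 2 µM and 8 with ribociclib (3.51%, 3.02%, 4.06%, 3.87% and 2.95% of all genes were called higher and 0.869%, 0.838%, 2.67%, 3.67% and 1.54% lower). GNAI3 and SLC38A2 were lower in all 5 (all genes 8.59%), and GNAI3, SLC38A2 and VAPA lay below vehicle in the 15 treated libraries (11.3%). With library totals made equal the counts of higher and lower members became 21 and 5 with AU2-94 at 1 µM, and 23 and 2 at 2 µM. Atirmociclib then gave 24 and 9 at the lower dose and 29 and 9 at the higher. With quantile normalisation they became 22 and 3 and 23 and 2 with AU2-94 at 1 and 2 µM. The 8 lower with AU2-94 at 1 µM became 4 to 7 with 1 library left out, with a move of over 1.5 times without its replicate 3 or vehicle replicate 2. The 5 lower at 2 µM became 2 to 5, with a move of over 1.5 times without any replicate of that group or without vehicle replicate 2, and the 3 lower with ribociclib became 1 to 3, without its replicate 3 or vehicle replicate 2.

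**Figure D1:**
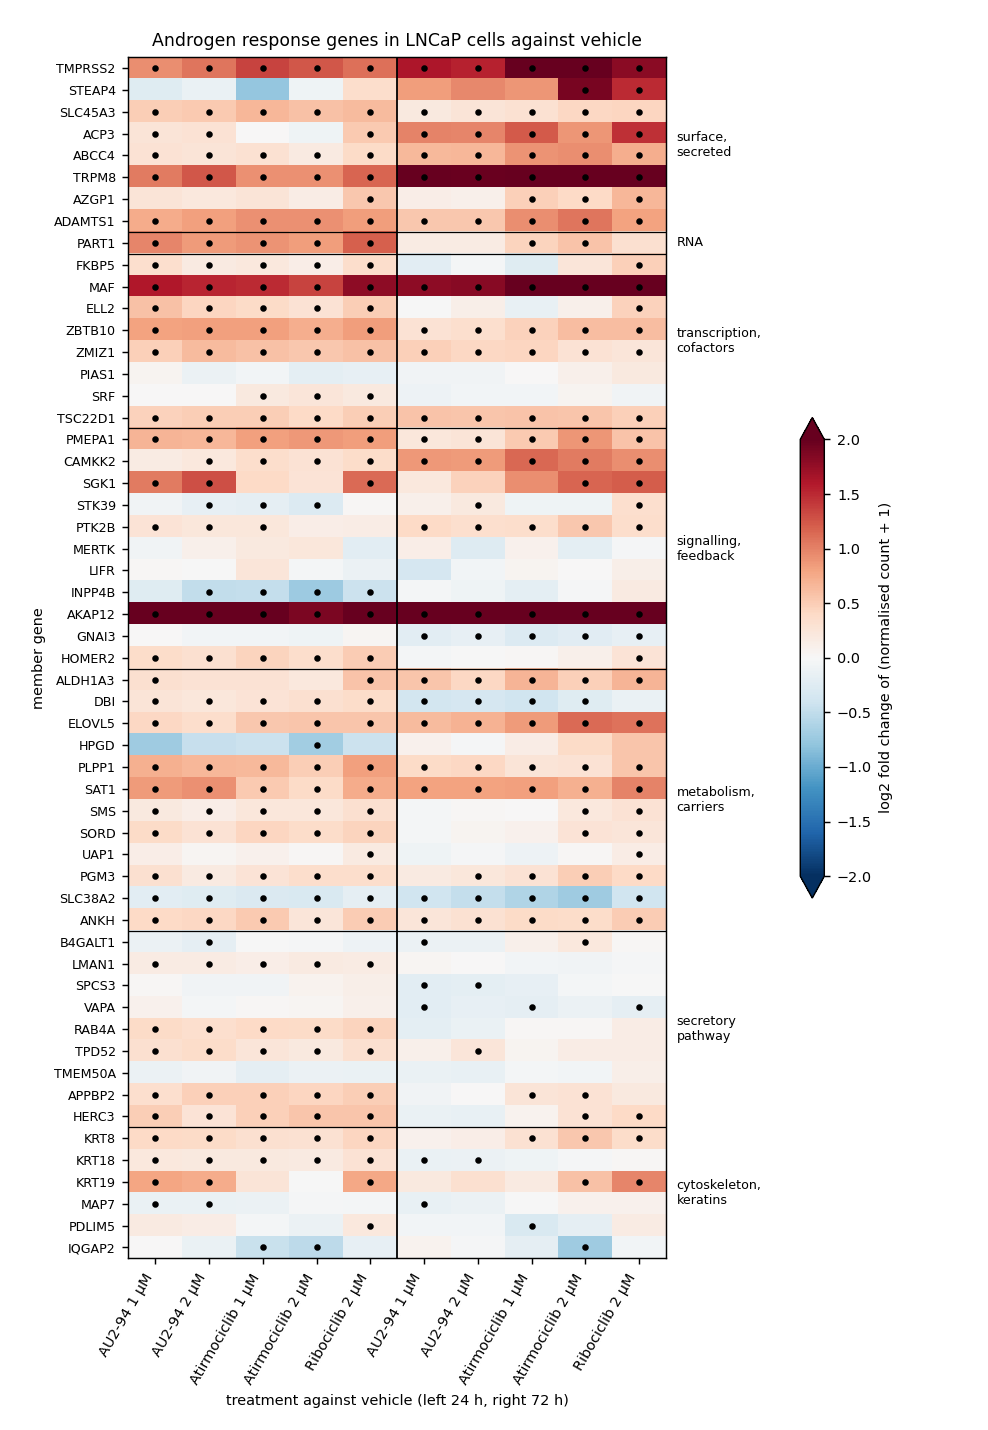
Log2 fold change against vehicle of each of the 55 members (vertical axis, grouped by role) in the 5 treatments at 24 h (left) and 72 h (right). Red is higher and blue lower than vehicle, on a colour scale that stops at 2.0 in each direction, and a dot marks an adjusted p of at most 0.05: red fills most of the left side, where 30 members have dots in all 5 columns, and thins on the right, where 19 do.

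Over the 10 contrasts with vehicle, 38 of the 55 members passed higher at least 1 time and never lower, as did 32.4% of all genes tested at both times. Another 8 passed lower and never higher (31.8%), namely INPP4B, GNAI3, HPGD, SLC38A2, SPCS3, VAPA, MAP7 and IQGAP2. STK39, DBI, B4GALT1, KRT18 and PDLIM5 passed in both directions, 5 members (8.73%), and PIAS1, MERTK, LIFR and TMEM50A, 4 members, in no contrast (27.1%). Higher in all 10 contrasts were 15 members (all genes 2.82%): TMPRSS2, SLC45A3, ABCC4, TRPM8, ADAMTS1, MAF, ZBTB10, ZMIZ1, TSC22D1, PMEPA1, AKAP12, ELOVL5, PLPP1, SAT1 and ANKH. That count was 12 to 15 with 1 library left out. It was 12 with equal library totals and 17 with quantile normalisation or with all 12 groups in 1 fit. SLC38A2 alone among the members was lower in all 10 (3.91%), and it was not without vehicle replicate 3 or ribociclib replicate 1 or 2 at 24 h. Per kilobase of exon, the scale on which genes can be compared, vehicle at 24 h held 2409 ± 111 normalised counts of ELOVL5, 2264 ± 37.1 of KRT18 and 1555 ± 119 of PLPP1 (SD, n = 3), the most abundant members. STEAP4 at 1.73 ± 0.525, PART1 at 4.66 ± 0.524, SGK1 at 4.89 ± 1.30 and AKAP12 at 4.96 ± 1.60 were the least abundant. PART1, SGK1 and AKAP12 differed from each other by less than their SDs.

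Most prostate surface and secreted proteins passed as higher, where 14.3% to 18.6% of all genes did at 24 h and 14.2% to 20.9% at 72 h. Of the 8 members of this group 6 with AU2-94 at 1 µM, 6 with AU2-94 at 2 µM, 5 with atirmociclib at 1 µM, 5 with atirmociclib at 2 µM and 7 with ribociclib were higher at 24 h, and at 72 h 6 with AU2-94 at 1 µM, 6 with AU2-94 at 2 µM, 7 with atirmociclib at 1 µM, 8 with atirmociclib at 2 µM and 8 with ribociclib, and the others did not pass. TMPRSS2 (ENSG00000184012, chr21:41464300-41531116, minus strand) encodes a serine protease of the luminal surface and lends its androgen-driven promoter to gene fusions in prostate cancer. Values are given here in the order of replicates 1, 2 and 3. TMPRSS2 measured 5672, 6056 and 5691 normalised counts in vehicle at 24 h, 10043, 12189 and 10919.7 with AU2-94 at 1 µM and 11574, 13167 and 12053 at 2 µM. It measured 14599, 14983 and 14641 with atirmociclib at 1 µM, 15163, 13587 and 12759 at 2 µM and 13016, 11858 and 12640.3 with ribociclib. Every treated library at 24 h was above every vehicle library. TMPRSS2 measured 5129, 4504 and 4205 normalised counts in vehicle at 72 h, 14187, 14074 and 14014 with AU2-94 at 1 µM and 12643, 13471 and 14087 at 2 µM. It measured 19815, 19897 and 20397 with atirmociclib at 1 µM, 18747, 20755 and 20223 at 2 µM and 15663, 14764 and 17923 with ribociclib. At 72 h the gap was wider still, with vehicle below its 24 h level and atirmociclib above every other group. The log2 fold change rose from 0.92 to 1.34 (SE 0.068) at 24 h to 1.54 to 2.12 (SE 0.068) at 72 h, with limma adjusted p of at most 1.06e-08 and 2.46e-11. The change of effect, 72 h minus 24 h, was 0.46 to 0.86 and passed in all 5 treatments (adjusted p 1.6e-07 to 0.0012). Of its exon bases 8.53% overlap MX1 on the opposite strand, and since the strand setting of the counting was not given, reads there cannot be assigned.

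TRPM8 (ENSG00000144481, chr2:233917373-234019522, plus strand) encodes the cold- and menthol-gated cation channel of luminal cells. TRPM8 measured 449, 607 and 451 normalised counts in vehicle at 24 h, 936, 1024 and 1120.4 with AU2-94 at 1 µM and 1186, 1325 and 1049 at 2 µM. It measured 1005, 757 and 1082 with atirmociclib at 1 µM, 855, 1177 and 809 at 2 µM and 1290.3, 903 and 1210.4 with ribociclib. The lowest treated library was above the highest vehicle library. TRPM8 measured 267, 350.0 and 370.4 normalised counts in vehicle at 72 h, 1339, 1088 and 1608 with AU2-94 at 1 µM and 1152, 1341 and 1354 at 2 µM. It measured 1253, 1458 and 1329 with atirmociclib at 1 µM, 1368, 1346 and 1334 at 2 µM and 1403, 1193 and 1581 with ribociclib. Vehicle fell between the times while every treated group stood higher at 72 h than its own 24 h mean. The log2 fold change went from 0.91 to 1.25 (SE 0.17, adjusted p 1.44e-05 to 0.000337) to 1.97 to 2.08 (SE 0.13, adjusted p 5.83e-10 to 5.35e-09), and the change of effect of 0.72 to 1.14 passed in all 5 treatments. With AU2-94 at 2 µM that change, 0.72, lost its pass without replicate 3 of its 24 h group, replicate 2 or 3 of its 72 h group, vehicle replicate 2 at 24 h or vehicle replicate 1 at 72 h (0.58 to 0.82 over all libraries left out).

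ACP3, prostatic acid phosphatase, and STEAP4, a metalloreductase of the plasma membrane, passed in more treatments at 72 h than at 24 h. The ACP3 log2 fold change was -0.087 to 0.53 (SE 0.091) at 24 h, where it passed with AU2-94 at both doses and ribociclib, and 0.88 to 1.45 (SE 0.12) at 72 h, where it passed in all 5, as did its change of effect of 0.69 to 1.23. STEAP4 was at -0.78 to 0.35 (SE 0.54) at 24 h and did not pass, and rose at 72 h with atirmociclib at 2 µM by 1.90 and ribociclib by 1.49 (SE 0.43, adjusted p 0.00165 and 0.0131). It was the scarcest member, at 7.07 ± 3.26 normalised counts in vehicle and 28.9 ± 11.4 with atirmociclib at 2 µM at 72 h (SD, n = 3). That vehicle mean was under the 10 normalised counts asked by the filter. The place of STEAP4 in the 72 h test, and in the counts of higher members there, thus rested at least in part on treated libraries. ABCC4, an exporter of cyclic nucleotides and prostaglandins, rose in all 10 contrasts, by 0.17 to 0.38 at 24 h, then 0.65 to 0.94 at 72 h, with a gain in all 5 treatments (0.35 to 0.76). SLC45A3, the prostate sugar transporter prostein, went the other way, with 0.50 to 0.67 at 24 h, 0.19 to 0.43 at 72 h and a lower effect in all 5 (-0.37 to -0.17). ADAMTS1, a secreted metalloprotease, rose by 0.74 to 0.92 and 0.53 to 1.07. AZGP1, a secreted zinc-binding glycoprotein, passed at 24 h with ribociclib (0.54, adjusted p = 0.00041) and at 72 h also with atirmociclib (0.47 and 0.40). Its annotated pseudogene in the table held counts equal to 8.10% of its own, so reads can be split between them. PART1, a long non-coding RNA of the prostate, rose at 24 h in all 5 treatments, by 0.84 to 1.20 (SE 0.19), and at 72 h passed with atirmociclib, at 0.44 and 0.58 (SE 0.15).

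Transcription regulators and cofactors also moved up, where 14.3% to 18.6% of all genes passed higher at 24 h and 14.2% to 20.9% at 72 h. Of 8 members 6 with AU2-94 at 1 µM, 6 with AU2-94 at 2 µM, 7 with atirmociclib at 1 µM, 7 with atirmociclib at 2 µM and 7 with ribociclib were higher at 24 h and 4 with AU2-94 at 1 µM, 4 with AU2-94 at 2 µM, 4 with atirmociclib at 1 µM, 4 with atirmociclib at 2 µM and 6 with ribociclib at 72 h, and the others did not pass. MAF (ENSG00000178573, chr16:79585843-79600737, minus strand) encodes a basic leucine zipper transcription factor. MAF measured 738, 795 and 711 normalised counts in vehicle at 24 h, 2364, 2254 and 2184 with AU2-94 at 1 µM and 1964, 2318 and 2214 at 2 µM. It measured 2094, 2172 and 2029 with atirmociclib at 1 µM, 1907, 1849.8 and 1964 at 2 µM and 2751, 2527 and 2509 with ribociclib. Treated libraries exceeded vehicle without overlap, with ribociclib on top. MAF measured 295, 268 and 221 normalised counts in vehicle at 72 h, 985, 829.7 and 898 with AU2-94 at 1 µM and 959, 842 and 945 at 2 µM. It measured 1149, 1129 and 1110.0 with atirmociclib at 1 µM, 1463, 1353 and 1386 at 2 µM and 1529, 1713 and 1587 with ribociclib. All groups had come down from 24 h, and treated libraries again exceeded vehicle without overlap. The log2 fold change was 1.35 to 1.79 (SE 0.063) at 24 h and 1.79 to 2.63 (SE 0.091) at 72 h (adjusted p of at most 7.49e-12 and 9.43e-11), from 2.55 to 6.18 fold. Between the times its effect grew with atirmociclib at 1 µM (0.63), at 2 µM (1.08) and with ribociclib (0.83), and was 0.20 and 0.28 with AU2-94.

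FKBP5 (ENSG00000096060, chr6:35573585-35728583, minus strand) encodes the HSP90 cochaperone FKBP51, a regulator of steroid hormone signalling that is among the genes androgen induces most directly. FKBP5 measured 4100.3, 4029.9 and 3837 normalised counts in vehicle at 24 h, 4949, 5054 and 5114 with AU2-94 at 1 µM and 4222, 4734 and 4546 at 2 µM. It measured 4437, 4850.3 and 4630.5 with atirmociclib at 1 µM, 4263, 4294 and 4631 at 2 µM and 5099.8, 5126 and 5095 with ribociclib. All treated libraries were above vehicle, those with ribociclib and AU2-94 at 1 µM by most. FKBP5 measured 3446, 3579 and 3299 normalised counts in vehicle at 72 h, 3071, 2822 and 3013 with AU2-94 at 1 µM and 3706, 2856 and 3539.7 at 2 µM. It measured 2713, 2957 and 3016 with atirmociclib at 1 µM, 4693, 3647 and 3981 at 2 µM and 4475, 5443 and 4476 with ribociclib. AU2-94 at 1 µM and atirmociclib at 1 µM now lay below vehicle, AU2-94 at 2 µM spanned it, and atirmociclib at 2 µM and ribociclib lay above it. The 24 h log2 fold change was 0.14 to 0.36 (SE 0.048, adjusted p 1.34e-05 to 0.0301) and passed in all 5. At 72 h it passed with ribociclib alone (0.47, SE 0.10, adjusted p = 0.00108), and was 0.25 with atirmociclib at 2 µM, -0.25 at 1 µM, -0.21 with AU2-94 at 1 µM and -0.039 at 2 µM. Its change of effect passed for AU2-94 at 1 µM (-0.55) and atirmociclib at 1 µM (-0.47). At 24 h the pass with AU2-94 at 2 µM was lost without its replicate 2 or vehicle replicate 3 (0.14 to 0.22), and that with atirmociclib at 2 µM without its replicate 3 or vehicle replicate 2 or 3 (0.10 to 0.16).

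ELL2, an elongation factor of RNA polymerase II, followed FKBP5: it rose at 24 h in all 5 treatments by 0.29 to 0.58 (SE 0.069) and at 72 h passed with ribociclib (0.46, adjusted p = 0.00219). ELL2 and FKBP5 passed in the same 6 of the 10 contrasts. ZBTB10, a zinc finger repressor, rose by 0.73 to 0.83 at 24 h and 0.30 to 0.62 at 72 h in all 10 contrasts, and ZMIZ1, a PIAS-like coactivator, by 0.48 to 0.63 and 0.24 to 0.47. TSC22D1, a leucine zipper regulator, rose by nearly the same amount throughout (0.39 to 0.49 and 0.48 to 0.58), and its change of effect did not pass (-0.014 to 0.16). SRF, the serum response factor, passed higher at 24 h with atirmociclib at 1 µM (0.19), at 2 µM (0.25) and with ribociclib (0.20), and not at 72 h (-0.10 to 0.049). PIAS1, a SUMO ligase and transcriptional coregulator, did not pass and was at -0.19 to 0.047 at 24 h and -0.064 to 0.20 at 72 h. Of its exon bases 30.6% overlap CALML4 on the opposite strand.

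Signalling proteins and feedback regulators split by member. Among all genes 14.3% to 18.6% passed higher and 13.5% to 16.2% lower at 24 h. At 72 h 14.2% to 20.9% of all genes passed higher and 15.3% to 19.8% lower. Of 11, higher and lower at 24 h were 5 and 0, 6 and 2, 5 and 2, 4 and 2, 5 and 1 in the order of AU2-94 and then atirmociclib, lower dose first, and ribociclib last, and at 72 h 4 and 1, 5 and 1, 4 and 1, 5 and 1, 7 and 1. AKAP12 (ENSG00000131016, chr6:151239967-151358559, plus strand) encodes a scaffold that anchors protein kinases A and C. AKAP12 measured 34.1, 59.7 and 36.7 normalised counts in vehicle at 24 h, 107, 399 and 274 with AU2-94 at 1 µM and 563, 556 and 292 at 2 µM. It measured 458, 308 and 404 with atirmociclib at 1 µM, 493, 280.2 and 28.4 at 2 µM and 229.9, 117 and 238 with ribociclib. It was scarce in vehicle and scattered widely under treatment: replicate 3 of atirmociclib at 2 µM lay below all 3 vehicle libraries, and the other 14 treated libraries lay above them. AKAP12 measured 48.1, 32.0 and 50.8 normalised counts in vehicle at 72 h, 297, 236 and 255 with AU2-94 at 1 µM and 167, 197 and 316 at 2 µM. It measured 138, 181 and 273 with atirmociclib at 1 µM, 168, 226 and 201 at 2 µM and 241, 158 and 309.6 with ribociclib. All 15 treated libraries were then above vehicle. Its log2 fold change was 1.89 to 3.39 (SE 0.70, adjusted p 0.00118 to 0.0445) at 24 h and 2.12 to 2.58 (SE 0.27, adjusted p 1.05e-06 to 5.36e-06) at 72 h, and averaged over the 5 treatments no member changed more at either time. With atirmociclib at 2 µM at 24 h it lost its pass without replicate 1 or 2 of that group or any vehicle library (1.08 to 3.11). With AU2-94 at 1 µM it did so without its replicate 2 or 3 or vehicle replicate 1 (2.00 to 2.94) and with ribociclib without its replicate 1 or 3 or vehicle replicate 1 or 3 (1.94 to 2.44).

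SGK1 (ENSG00000118515, chr6:134169248-134318112, minus strand), a kinase that androgen and glucocorticoid both induce, was scarce. SGK1 measured 34.6, 51.2 and 60.2 normalised counts in vehicle at 24 h, 147, 92.1 and 70.3 with AU2-94 at 1 µM and 172, 102 and 92.8 at 2 µM. It measured 85.0, 54.5 and 53.8 with atirmociclib at 1 µM, 59.3, 74.4 and 43.4 at 2 µM and 110.3, 123 and 85.7 with ribociclib. AU2-94 and ribociclib libraries were all above vehicle, and those with atirmociclib overlapped it. SGK1 measured 32.6, 32.7 and 12.6 normalised counts in vehicle at 72 h, 21.9, 40.4 and 24.0 with AU2-94 at 1 µM and 34.3, 39.4 and 27.0 at 2 µM. It measured 33.0, 46.8 and 65.1 with atirmociclib at 1 µM, 72.2, 69.6 and 32.8 at 2 µM and 48.6, 59.9 and 62.6 with ribociclib. Here AU2-94 libraries overlapped vehicle, and 3 of 3 libraries with ribociclib and with atirmociclib at each dose lay above it. At 24 h SGK1 passed with AU2-94 at 1 µM (1.04), at 2 µM (1.29) and with ribociclib (1.13, SE 0.30). At 72 h it passed with atirmociclib at 2 µM (1.17) and ribociclib (1.21, SE 0.37), and with atirmociclib at 1 µM it was 0.93 (adjusted p = 0.0538, and 0.0434 with replicate number as a block). The change of effect, -0.84 to 0.89, did not pass (adjusted p 0.221 to 0.938). Passes were lost with AU2-94 at 1 µM without its replicate 1 or vehicle replicate 1 (0.75 to 1.28), with atirmociclib at 2 µM without its replicate 1 or 2 or vehicle replicate 3 (0.73 to 1.53), and with ribociclib at 72 h without its replicate 3 or vehicle replicate 3 (0.78 to 1.43).

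STK39 (ENSG00000198648, chr2:167954020-168247595, minus strand), the kinase SPAK that regulates ion cotransporters, passed in both directions. STK39 measured 3346, 3197 and 3089.9 normalised counts in vehicle at 24 h, 2963, 3138 and 3036 with AU2-94 at 1 µM and 2847, 2858 and 2888 at 2 µM. It measured 2790.4, 2857 and 2844 with atirmociclib at 1 µM, 2731, 2655 and 2556 at 2 µM and 3274, 3229 and 3295 with ribociclib. AU2-94 at 2 µM and atirmociclib at both doses lay below vehicle, and ribociclib within its range. STK39 measured 3334, 3263 and 3308 normalised counts in vehicle at 72 h, 3554, 3521 and 3584 with AU2-94 at 1 µM and 3746, 3461 and 4124 at 2 µM. It measured 3162, 3175 and 2984 with atirmociclib at 1 µM, 3113, 3248 and 2996 at 2 µM and 4199, 4149 and 4115 with ribociclib. AU2-94 and ribociclib now lay above vehicle, and atirmociclib below it at all 6 libraries. STK39 fell at 24 h with AU2-94 at 2 µM (-0.16), atirmociclib at 1 µM (-0.18) and at 2 µM (-0.28, SE 0.041), and rose at 72 h with AU2-94 at 2 µM (0.19, adjusted p = 0.0104) and ribociclib (0.33, adjusted p = 8.73e-05, SE 0.053). With AU2-94 at 2 µM the change of effect was 0.35 (adjusted p = 0.000134), and the pass at 72 h was lost without replicate 3 of that group (0.13 to 0.25). GNAI3 (ENSG00000065135, chr1:109548615-109600195, plus strand), an inhibitory G protein subunit, passed as lower at 72 h and did not pass at 24 h. GNAI3 measured 1873, 1761 and 1659.9 normalised counts in vehicle at 24 h, 1881, 1708 and 1716 with AU2-94 at 1 µM and 1727, 1656 and 1703 at 2 µM. It measured 1674, 1746 and 1669.8 with atirmociclib at 1 µM, 1693, 1656 and 1646 at 2 µM and 1758, 1859.5 and 1809 with ribociclib. Treated and vehicle libraries overlapped at 24 h. GNAI3 measured 1866, 2066 and 1876 normalised counts in vehicle at 72 h, 1686, 1738 and 1599.7 with AU2-94 at 1 µM and 1704, 1737 and 1749.7 at 2 µM. It measured 1593, 1621 and 1586 with atirmociclib at 1 µM, 1710.0, 1634 and 1599.6 at 2 µM and 1810.5, 1706 and 1682 with ribociclib. All 15 treated libraries were below vehicle. It did not pass at 24 h (-0.082 to 0.037, SE 0.053) and passed as lower in all 5 at 72 h (-0.27 to -0.16, SE 0.053, adjusted p 0.000438 to 0.0291), and the change of effect passed for AU2-94 at 1 µM, atirmociclib at 1 µM and ribociclib (-0.21, -0.22 and -0.20), each lost without vehicle replicate 3 at 24 h or replicate 2 at 72 h and without some treated libraries (-0.26 to -0.16, -0.26 to -0.17 and -0.24 to -0.15). The 72 h pass was lost with AU2-94 at 2 µM without any of its replicates or vehicle replicate 2 (-0.19 to -0.11) and with ribociclib without its replicate 2 or 3 or vehicle replicate 2 (-0.19 to -0.11).

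PMEPA1, a membrane protein that damps TGF-beta and androgen signalling, rose in all 10 contrasts, by 0.66 to 0.87 (SE 0.046) at 24 h and 0.23 to 0.88 (SE 0.052) at 72 h. CAMKK2, the kinase upstream of AMPK through which androgen drives metabolism, was at 0.16 to 0.36 at 24 h, where AU2-94 at 1 µM did not pass (adjusted p = 0.069), and rose by 0.85 to 1.15 at 72 h, with a change of effect of 0.57 to 0.80 that passed in all 5. PTK2B, the focal adhesion kinase relative PYK2, passed at 24 h with AU2-94 and with atirmociclib at 1 µM (0.27, 0.23 and 0.22) and at 72 h in all 5 (0.33 to 0.54). HOMER2, a scaffold of calcium signalling, rose at 24 h in all 5 (0.32 to 0.51) and at 72 h with ribociclib (0.28), with a lower effect at 72 h in all 5 (-0.41 to -0.24). INPP4B, a lipid phosphatase that restrains AKT, fell at 24 h in 4 treatments, to a log2 fold change of -0.49 with AU2-94 at 2 µM, -0.48 and -0.73 with atirmociclib and -0.42 with ribociclib (SE 0.13), and did not pass at 72 h (-0.19 to 0.19). MERTK, a receptor tyrosine kinase, lay at -0.22 to 0.23 and -0.25 to 0.14 with SEs of 0.19 and 0.16, and LIFR, the receptor of leukaemia inhibitory factor, at -0.12 to 0.25 and -0.34 to 0.12 (SE 0.19 and 0.13). Neither passed, though LIFR with AU2-94 at 1 µM at 72 h had an adjusted p of 0.0608, and of 0.0392 with replicate number as a block.

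Metabolic enzymes and metabolite carriers were the largest group. Among all genes 14.3% to 18.6% passed higher and 13.5% to 16.2% lower at 24 h. At 72 h 14.2% to 20.9% of all genes passed higher and 15.3% to 19.8% lower. Of 12, higher and lower at 24 h were 9 and 1, 8 and 1, 8 and 1, 8 and 2, 10 and 1 in the same order of treatments, and at 72 h 5 and 2, 6 and 2, 6 and 2, 8 and 2, 9 and 1. ELOVL5, which elongates polyunsaturated fatty acids, rose in all 10 contrasts and more at 72 h, by 0.35 to 0.56 (SE 0.043) and 0.63 to 1.14 (SE 0.039), with a change of effect of 0.22 to 0.58 that passed in all 5. SAT1, which acetylates spermidine and spermine and so starts their export, rose by 0.39 to 0.91 and 0.71 to 0.99, PLPP1, a lipid phosphate phosphatase, by 0.50 to 0.82 and 0.25 to 0.55 and ANKH, a membrane exporter of ATP and citrate, by 0.24 to 0.52 and 0.25 to 0.50. Of the exon bases of PLPP1 24.9% overlap MTREX on the opposite strand. ALDH1A3, a retinaldehyde dehydrogenase, passed at 24 h with AU2-94 at 1 µM (0.33) and ribociclib (0.56) and at 72 h in all 5 (0.42 to 0.69), and 32.1% of its exon bases lie under ALDH1A3-AS1. With replicate number as a block it also passed at 24 h with AU2-94 at 2 µM and atirmociclib at 1 µM (adjusted p = 0.0452 and 0.0473). SMS, spermine synthase, and SORD, sorbitol dehydrogenase, rose in all 5 treatments at 24 h (0.13 to 0.32 and 0.29 to 0.44) and at 72 h with atirmociclib at 2 µM (0.20 and 0.27) and ribociclib (0.29 and 0.24). The SMS value with AU2-94 at 2 µM at 24 h, 0.13, had an adjusted p of 0.0363, and of 0.0523 with replicate number as a block. PGM3 and UAP1 act in sequence to make UDP-N-acetylglucosamine, the sugar donor for glycoproteins. PGM3 rose by 0.18 to 0.35 at 24 h in all 5 and at 72 h in all but AU2-94 at 1 µM (0.22 to 0.49), whereas UAP1 passed with ribociclib alone, at 0.18 and 0.14. HPGD, which inactivates prostaglandins, had all 15 treated libraries below vehicle at 24 h and log2 fold changes of -0.71 to -0.42 (SE 0.26), of which that with atirmociclib at 2 µM passed (adjusted p = 0.0451), and -0.023 to 0.55 at 72 h, which did not pass.

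SLC38A2 (ENSG00000134294, chr12:46358188-46372773, minus strand), the sodium-coupled transporter SNAT2 for neutral amino acids, was the member that fell throughout. SLC38A2 measured 6376, 6433 and 7005 normalised counts in vehicle at 24 h, 5722, 5752 and 5688 with AU2-94 at 1 µM and 5449, 5229 and 6049 at 2 µM. It measured 5292, 5802 and 5108 with atirmociclib at 1 µM, 5422, 5076 and 5520.2 at 2 µM and 5719, 5792 and 5960.1 with ribociclib. Every treated library was below every vehicle library. SLC38A2 measured 7333, 6901 and 7451 normalised counts in vehicle at 72 h, 5689, 5443 and 5368 with AU2-94 at 1 µM and 5024, 5223 and 5315 at 2 µM. It measured 5221, 4749.9 and 4323 with atirmociclib at 1 µM, 4329, 4554 and 4379.8 at 2 µM and 4957, 6262 and 5287 with ribociclib. The gap had widened, most with atirmociclib at 2 µM. The log2 fold change was -0.31 to -0.18 (SE 0.056, adjusted p 0.000326 to 0.0193) at 24 h and -0.71 to -0.39 (SE 0.072, adjusted p 2.21e-07 to 0.000345) at 72 h. The change of effect passed with atirmociclib, at -0.31 and -0.40 for 1 and 2 µM, the first lost without its replicate 2 at 24 h or 3 at 72 h (-0.38 to -0.25). At 24 h the pass was lost with AU2-94 at 1 µM without vehicle replicate 3 (-0.23 to -0.16) and with ribociclib without vehicle replicate 3 or its replicate 1 or 2 (-0.21 to -0.14).

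DBI (ENSG00000155368, chr2:119366924-119372550, plus strand), the acyl-CoA binding protein, was higher at 24 h and lower at 72 h. DBI measured 2660.5, 2807 and 2749 normalised counts in vehicle at 24 h, 3458, 3055 and 3275 with AU2-94 at 1 µM and 3052, 3101 and 3428 at 2 µM. It measured 3283, 3381 and 3220.0 with atirmociclib at 1 µM, 3360.2, 3374 and 3555 at 2 µM and 3515, 3635 and 3459 with ribociclib. All 15 treated libraries exceeded vehicle. DBI measured 4109.6, 3799 and 3369.8 normalised counts in vehicle at 72 h, 2960.0, 2882 and 2905 with AU2-94 at 1 µM and 3077, 2726 and 3079.8 at 2 µM. It measured 2716, 2919.8 and 2853 with atirmociclib at 1 µM, 3168, 3258 and 3118 at 2 µM and 3248, 3905 and 3160.0 with ribociclib. Vehicle had risen, and every library with AU2-94 or atirmociclib lay below all 3 vehicle libraries, while ribociclib overlapped them. It passed higher in all 5 treatments at 24 h (0.22 to 0.37, SE 0.052, adjusted p 2.54e-05 to 0.00345) and lower in 4 at 72 h, with AU2-94 at 1 and 2 µM (-0.36 and -0.34) and atirmociclib at 1 and 2 µM (-0.41 and -0.24, SE 0.076), and was -0.13 with ribociclib. The change of effect of -0.67 to -0.50 passed in all 5 (adjusted p 3.36e-06 to 0.000225). The 72 h value with atirmociclib at 2 µM lost its pass without its replicate 3 or vehicle replicate 1 or 2 (-0.31 to -0.17).

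Of the genes of the secretory pathway, trafficking and protein turnover, 5 of 9 passed higher at 24 h and fewer at 72 h. In all, higher and lower were 5 and 0, 5 and 1, 5 and 0, 5 and 0, 5 and 0 at 24 h and 0 and 3, 1 and 1, 1 and 1, 3 and 0, 1 and 1 at 72 h, in the same order. Among all genes 14.3% to 18.6% passed higher and 13.5% to 16.2% lower at 24 h. At 72 h 14.2% to 20.9% of all genes passed higher and 15.3% to 19.8% lower. The same 5 passed higher in every treatment at 24 h: RAB4A, a recycling endosome GTPase (0.34 to 0.44), HERC3, a ubiquitin ligase (0.28 to 0.55), APPBP2, a substrate receptor of a ubiquitin ligase (0.34 to 0.49), TPD52, a vesicle trafficking protein (0.19 to 0.36), and LMAN1, a cargo receptor from the endoplasmic reticulum to the Golgi (0.14 to 0.17). At 72 h RAB4A and LMAN1 did not pass (-0.19 to 0.15 and -0.074 to 0.038), HERC3 with atirmociclib at 2 µM and ribociclib (0.29 and 0.39), APPBP2 with atirmociclib (0.26 and 0.29) and TPD52 with AU2-94 at 2 µM (0.25). For RAB4A the change of effect was -0.58 to -0.29 and passed in all but ribociclib. The annotation holds another gene named HERC3, absent from the table, that shares 69.5% of the exon bases of this one, so the counts of HERC3 are uncertain. SPCS3, a subunit of the signal peptidase, fell at 72 h with AU2-94 at 1 and 2 µM (-0.21 and -0.20), and with replicate number as a block also with atirmociclib at 1 µM (-0.17, adjusted p = 0.0418). VAPA, a tether of the endoplasmic reticulum to other membranes, fell with AU2-94 at 1 µM, atirmociclib at 1 µM and ribociclib (-0.20, -0.17 and -0.18), and all 15 treated libraries were below vehicle. B4GALT1, a galactosyltransferase of the Golgi, fell at 24 h with AU2-94 at 2 µM (-0.18) and at 72 h with AU2-94 at 1 µM (-0.12, adjusted p = 0.0448, and 0.0501 with replicate number as a block), and rose at 72 h with atirmociclib at 2 µM (0.21). TMEM50A, a small membrane protein, passed nowhere (-0.18 to -0.076 and -0.15 to 0.12).

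In the cytoskeletal group of 6, higher and lower were 3 and 1, 3 and 1, 2 and 1, 2 and 1, 4 and 0 at 24 h and 0 and 2, 0 and 1, 1 and 1, 2 and 1, 2 and 0 at 72 h. Among all genes 14.3% to 18.6% passed higher and 13.5% to 16.2% lower at 24 h. At 72 h 14.2% to 20.9% of all genes passed higher and 15.3% to 19.8% lower. KRT18 (ENSG00000111057, chr12:52948871-52952906, plus strand) and its partner KRT8 are the keratins of luminal cells. KRT18 measured 6815, 7018 and 7007 normalised counts in vehicle at 24 h, 8116, 7912 and 8142 with AU2-94 at 1 µM and 7681, 8285 and 7956 at 2 µM. It measured 7926, 7973 and 8073 with atirmociclib at 1 µM, 8126, 8081 and 7458 at 2 µM and 8711, 8330.3 and 8391 with ribociclib. All treated libraries were above vehicle. KRT18 measured 6925, 7212 and 7046 normalised counts in vehicle at 72 h, 6504, 6399 and 6483 with AU2-94 at 1 µM and 6636, 6518 and 6453 at 2 µM. It measured 6719, 6617 and 6710.1 with atirmociclib at 1 µM, 7078, 6924 and 6747 at 2 µM and 7098, 7356 and 7069 with ribociclib. AU2-94 and atirmociclib at 1 µM lay below vehicle, and atirmociclib at 2 µM and ribociclib overlapped it. KRT18 passed higher in all 5 treatments at 24 h (0.18 to 0.29, SE 0.038) and lower at 72 h with AU2-94 at 1 µM (-0.13, adjusted p = 0.00618) and at 2 µM (-0.11, adjusted p = 0.0164, SE 0.033), and the change of effect of -0.34 to -0.21 passed in all 5 (adjusted p 3.09e-06 to 0.00117). The 72 h pass at 2 µM was lost without replicate 3 of that group or vehicle replicate 2 (-0.13 to -0.10). KRT8 rose by 0.30 to 0.43 at 24 h in all 5 and at 72 h with atirmociclib (0.31 and 0.54) and ribociclib (0.37). KRT8 and KRT18 share 525 exon bases on opposite strands, 17.1% of those of KRT18, and have 51 and 68 annotated pseudogenes by name, so their counts are uncertain where reads were shared.

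KRT19 (ENSG00000171345, chr17:41523617-41528308, minus strand), a keratin of simple epithelia that marks basal and progenitor cells in the prostate, was scarce. KRT19 measured 29.4, 47.1 and 41.5 normalised counts in vehicle at 24 h, 71.9, 69.9 and 60.5 with AU2-94 at 1 µM and 75.8, 62.4 and 59.4 at 2 µM. It measured 34.6, 52.6 and 55.2 with atirmociclib at 1 µM, 36.02, 32.3 and 48.0 at 2 µM and 73.8, 60.3 and 66.2 with ribociclib. AU2-94 and ribociclib lay above vehicle, and atirmociclib overlapped it. KRT19 measured 74.4, 57.9 and 81.6 normalised counts in vehicle at 72 h, 86.9, 77.1 and 80.6 with AU2-94 at 1 µM and 91.7, 81.6 and 92.6 at 2 µM. It measured 74.6, 96.7 and 72.2 with atirmociclib at 1 µM, 132, 90.6 and 99.6 at 2 µM and 119, 189 and 122 with ribociclib. At 72 h ribociclib and atirmociclib at 2 µM lay above vehicle, and AU2-94 at both doses and atirmociclib at 1 µM overlapped it. It passed at 24 h with AU2-94 (0.78 and 0.75) and ribociclib (0.77, SE 0.23), each lost without its own replicate 1 or vehicle replicate 1 (0.59 to 0.92, 0.56 to 0.89 and 0.58 to 0.91). At 72 h it passed with ribociclib (0.98, SE 0.20) and with atirmociclib at 2 µM (0.58), the latter lost without its replicate 1 or vehicle replicate 2 (0.42 to 0.69). IQGAP2, a scaffold of the actin cytoskeleton, was at -0.45 and -0.53 with atirmociclib at 24 h and at -0.71 with its 2 µM dose at 72 h, each passed as lower (SE 0.13 and 0.10), and passed with no other inhibitor. PDLIM5, an actin-binding adaptor, rose at 24 h with ribociclib (0.21) and fell at 72 h with atirmociclib at 1 µM (-0.31). With replicate number as a block it also passed at 24 h with AU2-94 at 1 µM (0.18, adjusted p = 0.0476). MAP7, a microtubule-associated protein, fell with AU2-94 at 24 h (-0.13 and -0.14) and with 1 µM at 72 h (-0.15).

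**Figure D2:**
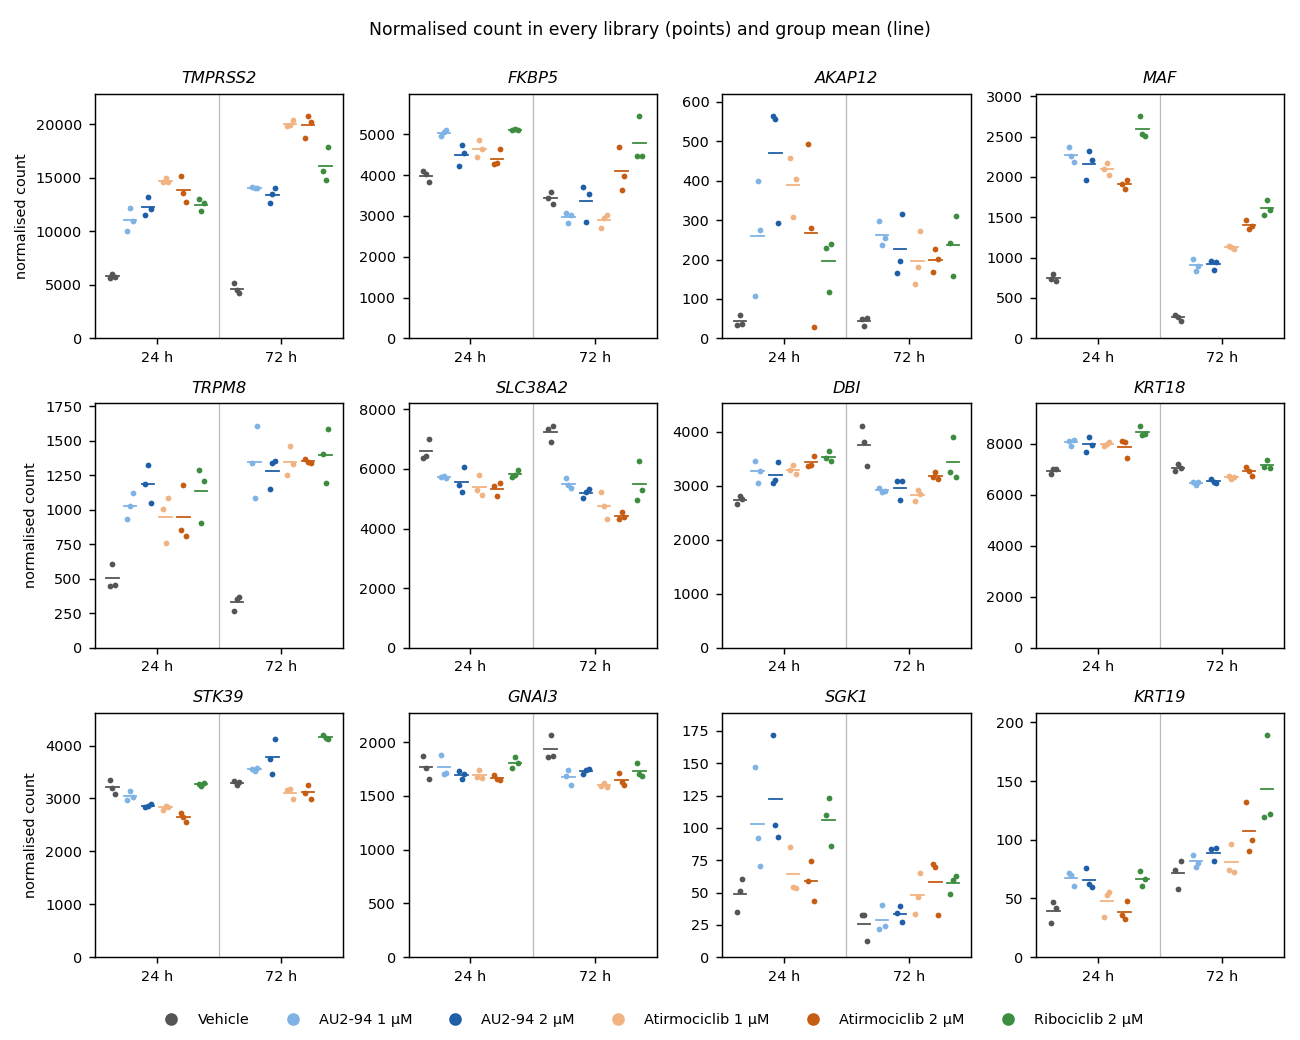
Normalised count (vertical axes, from 0) of 12 members in every library, with each point a library and each line the mean of a group of 3, vehicle in grey and the 5 treatments in colour, at 24 h and 72 h. TMPRSS2, MAF and TRPM8 stand clear of vehicle at both times, SLC38A2 lies below it, DBI and KRT18 go from above to below vehicle with AU2-94, and AKAP12, SGK1 and KRT19 are scarce with wide scatter.

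The 2 time points were compared treatment by treatment. Higher at both times were 18 members with AU2-94 at 1 µM (all genes 4.77%), 20 at 2 µM (5.68%), 21 with atirmociclib at 1 µM (8.1%), 23 at 2 µM (9.38%) and 30 with ribociclib (6.47%). Higher at 24 h and not passed at 72 h were 15, 13, 11, 8 and 9 members in that order, where 8.41%, 9.33%, 7.38%, 8.30% and 9.38% of all genes were. Higher at 72 h and not passed at 24 h were 1, 1, 3, 8 and 3 (all genes 9.62%, 7.84%, 11.2%, 10.8% and 7.96%). Lower at both times were SLC38A2 in all 5 treatments, MAP7 with AU2-94 at 1 µM and IQGAP2 with atirmociclib at 2 µM, where 6.28%, 6.96%, 9.06%, 9.31% and 6.94% of all genes were. Passed at neither time were 13, 12, 12, 9 and 9 members, and 52.3%, 53.2%, 46.4%, 44.4% and 51.9% of all genes. Opposite directions at the 2 times, each passed, were found for 3 members in at least 1 treatment (all genes 5.85%): DBI in 4 treatments and KRT18 in 2 went from higher to lower, and STK39 with AU2-94 at 2 µM from lower to higher. The count of 3 was 2 to 3 with 1 library left out, 2 without replicate 3 of AU2-94 at 2 µM at 72 h. It was 2 with quantile normalisation, and 4 with equal library totals, array weights, a pseudocount of 8, all 12 groups in 1 fit and other settings. With ribociclib 0 members changed direction, where 1.09% of all genes went from higher to lower and 1.27% from lower to higher.

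The change of effect, 72 h minus 24 h in 1 fit of all 36 libraries, tested this directly. It passed higher at 72 h for 7 members and lower for 20 with AU2-94 at 1 µM (all genes 10.1% and 11.5%), 7 and 14 at 2 µM (9.26% and 9.28%), 8 and 18 with atirmociclib at 1 µM (11.3% and 10.6%), 16 and 9 at 2 µM (11.7% and 9.96%) and 10 and 13 with ribociclib (10.5% and 9.66%). With library totals made equal the split with ribociclib became 14 and 9, and with quantile normalisation it became 10 and 8, and 9 and 13 with atirmociclib at 1 µM. The effect was higher at 72 h in all 5 treatments for 6 members, TMPRSS2, ACP3, ABCC4, TRPM8, CAMKK2 and ELOVL5 (all genes 4.55%), and lower in all 5 for 5 members, SLC45A3, HOMER2, DBI, PLPP1 and KRT18 (4.33%). With replicate number as a block HOMER2 with ribociclib was at an adjusted p of 0.0502.

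**Figure D3:**
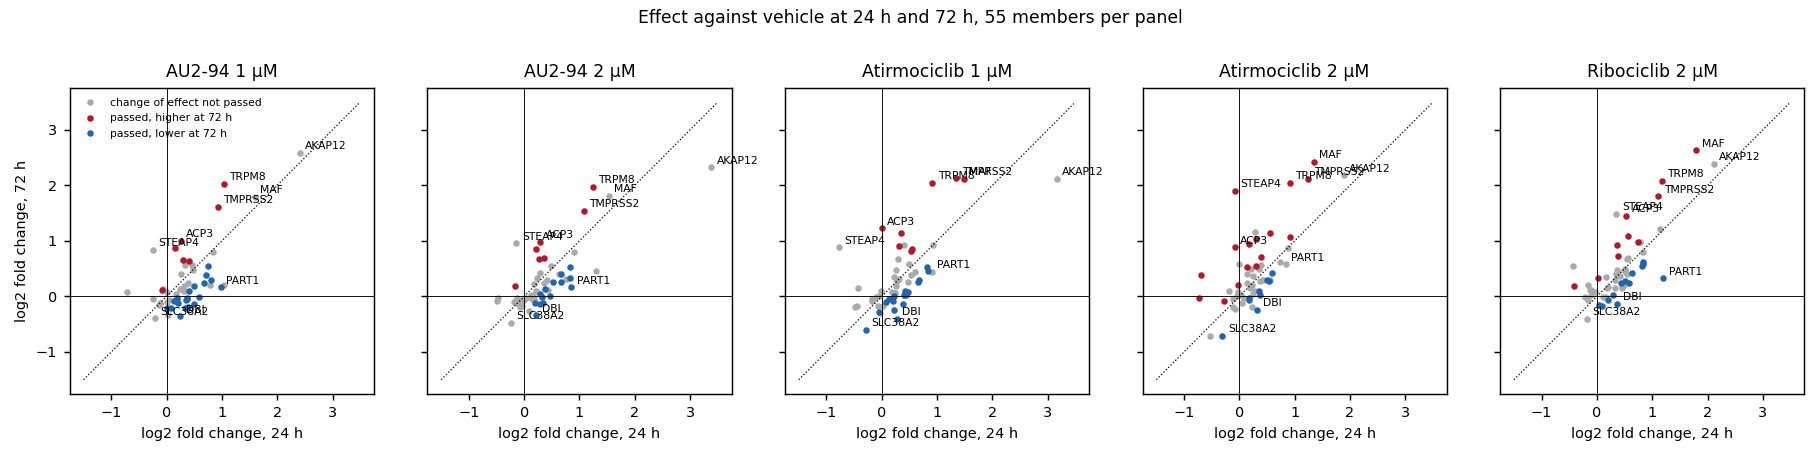
Log2 fold change against vehicle at 24 h (horizontal axes) and at 72 h (vertical axes), 1 panel per treatment and 1 point per member, with the line of equal effect dotted. Red points passed the change of effect as higher at 72 h and blue points as lower: with AU2-94 at 1 µM 7 are red and 20 blue, and with atirmociclib at 2 µM 16 are red and 9 blue.

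Vehicle itself differed between the times. Between 24 h and 72 h 4 members rose and 10 fell in vehicle (all genes 3.85% and 3.64%), or 2 and 13 with library totals made equal. MAF fell by 1.52 on the log2 scale (95% interval -1.68 to -1.36), and TRPM8 by 0.61, TMPRSS2 by 0.34, ELOVL5 by 0.34, ANKH by 0.35 and PGM3 by 0.30. KRT19 rose by 0.85, PART1 by 0.55, DBI by 0.45 and PLPP1 by 0.15. With replicate number as a block ACP3, PMEPA1 and PLPP1 did not pass (adjusted p = 0.0754, 0.143 and 0.136). The 14 passes became 9 to 12 with 1 library left out, fewest without vehicle replicate 2 at 24 h or replicate 3 at 72 h, and TRPM8 lost its pass without vehicle replicate 2 at 24 h or replicate 1 at 72 h (-0.70 to -0.47) and KRT19 without vehicle replicate 1 at 24 h or replicate 3 at 72 h (0.66 to 1.00).

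The 3 inhibitors were compared at matched dose and time, in 4 pairs at each time. At 24 h ribociclib and AU2-94 at 2 µM differed in 0 of 55 members at the adjusted p (all genes 0.0372%). That does not show that these inhibitors acted alike, as some intervals excluded 0. For TMPRSS2 the difference was 0.029 (95% interval -0.11 to 0.17, adjusted p = 0.91), for MAF 0.26 (95% interval 0.13 to 0.40, adjusted p = 0.102) and for FKBP5 0.18 (95% interval 0.084 to 0.28, adjusted p = 0.124). With AU2-94 at 2 µM replicate 3 left out 1 member passed. Atirmociclib at 2 µM was lower than ribociclib in 9 members and higher in 0 (2.81% and 1.83% of all genes): ACP3, at -0.61 (95% interval -0.80 to -0.42, adjusted p = 0.000517), MAF, at -0.44 (95% interval -0.58 to -0.31, adjusted p = 0.000391), AZGP1, SAT1, PLPP1, PDLIM5, STK39, FKBP5 and ABCC4. The FKBP5 difference of -0.22 lost its pass without replicate 1 or 2 of atirmociclib (-0.26 to -0.20).

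At 24 h atirmociclib and AU2-94 differed in 5 members at 1 µM and 10 at 2 µM. At 1 µM 3 were higher with atirmociclib and 2 lower (all genes 1.48% and 3.16%), and 1 and 1 with quantile normalisation. TMPRSS2 was higher by 0.42 (95% interval 0.28 to 0.56, adjusted p = 0.000668), ADAMTS1 by 0.18 and SLC45A3 by 0.17, and SAT1 was lower, at -0.32 (95% interval -0.43 to -0.20, adjusted p = 0.00125) and so was IQGAP2, at -0.46. At 2 µM 5 were higher and 5 lower (all genes 5.12% and 4.31%), and 1 and 8 with quantile normalisation or 3 and 9 with equal totals. SGK1 was lower with atirmociclib, at -1.02 (95% interval -1.66 to -0.38, adjusted p = 0.0424), and so was KRT19, at -0.76 (95% interval -1.24 to -0.29, adjusted p = 0.0411), the latter not with replicate number as a block (adjusted p = 0.0567). B4GALT1 was higher by 0.16 and also not so under the block (adjusted p = 0.0637). SGK1 lost its pass without replicate 1 or 2 of AU2-94 or replicate 1 or 3 of atirmociclib (-1.20 to -0.75), and KRT19 without any AU2-94 replicate or replicate 1 or 2 of atirmociclib (-0.92 to -0.64). The 10 became 4 to 9, with a move of over 1.5 times without AU2-94 replicate 2 or atirmociclib replicate 3, and the 5 at 1 µM became 2 to 5 with a move of over 1.5 times without any library of this pair except AU2-94 replicate 2.

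At 72 h more members passed between the inhibitors than at 24 h. Atirmociclib was higher than AU2-94 in 12 members and lower in 3 at 1 µM (all genes 4.53% and 3.7%), and 19 and 4 at 2 µM (11.1% and 8.73%). Ribociclib was higher than AU2-94 at 2 µM in 18 and lower in 0 (1.96% and 1.38%). Atirmociclib was higher than ribociclib in 6 and lower in 9 (4.83% and 4.35%). With quantile normalisation and with equal totals these splits were 10 and 4 and 8 and 6 for the pair at 1 µM, 11 and 6 and 10 and 9 for atirmociclib and AU2-94 at 2 µM, 11 and 0 and 9 and 0 for ribociclib and AU2-94, and 2 and 10 and 3 and 12 for atirmociclib and ribociclib. The 15 at 1 µM became 9 to 12, fewest without replicate 3 of either inhibitor, and the 18 of ribociclib and AU2-94 became 9 to 17, with a move of over 1.5 times without AU2-94 replicate 2 or 3 or ribociclib replicate 2.

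TMPRSS2 was higher with atirmociclib than with AU2-94 by 0.51 (95% interval 0.36 to 0.65, adjusted p = 6.73e-05) at 1 µM and 0.57 (95% interval 0.43 to 0.71, adjusted p = 7.05e-06) at 2 µM at 72 h, and than with ribociclib by 0.31 (95% interval 0.17 to 0.45, adjusted p = 0.00648). It was higher with ribociclib than with AU2-94 by 0.26 (95% interval 0.12 to 0.41, adjusted p = 0.0409), which did not pass with replicate number as a block (adjusted p = 0.0553) or without any AU2-94 replicate or ribociclib replicate 1 or 3 (0.18 to 0.32). MAF was higher than with AU2-94 by 0.62 (95% interval 0.42 to 0.81, adjusted p = 8.18e-05) with atirmociclib and 0.82 (95% interval 0.62 to 1.01, adjusted p = 0.000112) with ribociclib at 2 µM. At 1 µM its difference of 0.32 lost its pass without any atirmociclib replicate or AU2-94 replicate 2 or 3 (0.26 to 0.39). FKBP5 was higher with ribociclib than with AU2-94 by 0.51 (95% interval 0.31 to 0.72, adjusted p = 0.00708). With atirmociclib at 2 µM it was higher by 0.29 (95% interval 0.082 to 0.49, adjusted p = 0.0457), and not with replicate number as a block (adjusted p = 0.0574) or without replicate 2 or 3 of AU2-94 or 1 or 3 of atirmociclib (0.17 to 0.37).

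PMEPA1 (0.61 and 0.31 for atirmociclib and ribociclib minus AU2-94 at 2 µM), ADAMTS1 (0.53 and 0.26), ELOVL5 (0.44 and 0.39), HERC3 (0.44 and 0.54) and AZGP1 (0.30 and 0.57) were higher with both at 72 h. IQGAP2 was lower with atirmociclib than with AU2-94, at -0.68 (95% interval -0.89 to -0.48, adjusted p = 4.46e-05) and lower than with ribociclib, at -0.65 (95% interval -0.85 to -0.45, adjusted p = 0.000176), and its difference between ribociclib and AU2-94 was -0.035 (95% interval -0.24 to 0.17, adjusted p = 0.894). ACP3 was lower with atirmociclib than with ribociclib at 72 h too, at -0.57 (95% interval -0.83 to -0.31, adjusted p = 0.00576). STK39 was lower with atirmociclib than with ribociclib, at -0.41 (95% interval -0.52 to -0.30, adjusted p = 3.51e-05) and lower than with AU2-94 at 2 µM, at -0.27 (95% interval -0.38 to -0.16, adjusted p = 0.00102), and at 1 µM its -0.19 lost the pass without any AU2-94 replicate or atirmociclib replicate 1 or 3 (-0.21 to -0.17). SLC38A2 was lower with atirmociclib than with AU2-94 at 2 µM, at -0.23 (95% interval -0.38 to -0.080, adjusted p = 0.0284), lost without AU2-94 replicate 2 or 3 or atirmociclib replicate 1 or 3 (-0.25 to -0.21). KRT18 was higher with ribociclib than with AU2-94 by 0.13 (95% interval 0.065 to 0.20, adjusted p = 0.0321), lost without any AU2-94 replicate or ribociclib replicate 1 or 2 (0.12 to 0.15). Not passed under the block at 72 h were also PLPP1 and PDLIM5 for atirmociclib minus AU2-94 at 1 µM (adjusted p = 0.0598 and 0.0653), PTK2B at 2 µM (0.0625), UAP1 and MAP7 for ribociclib minus AU2-94 (0.0563 and 0.0580) and ELL2 for atirmociclib minus ribociclib (0.0504).

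**Figure D4:**
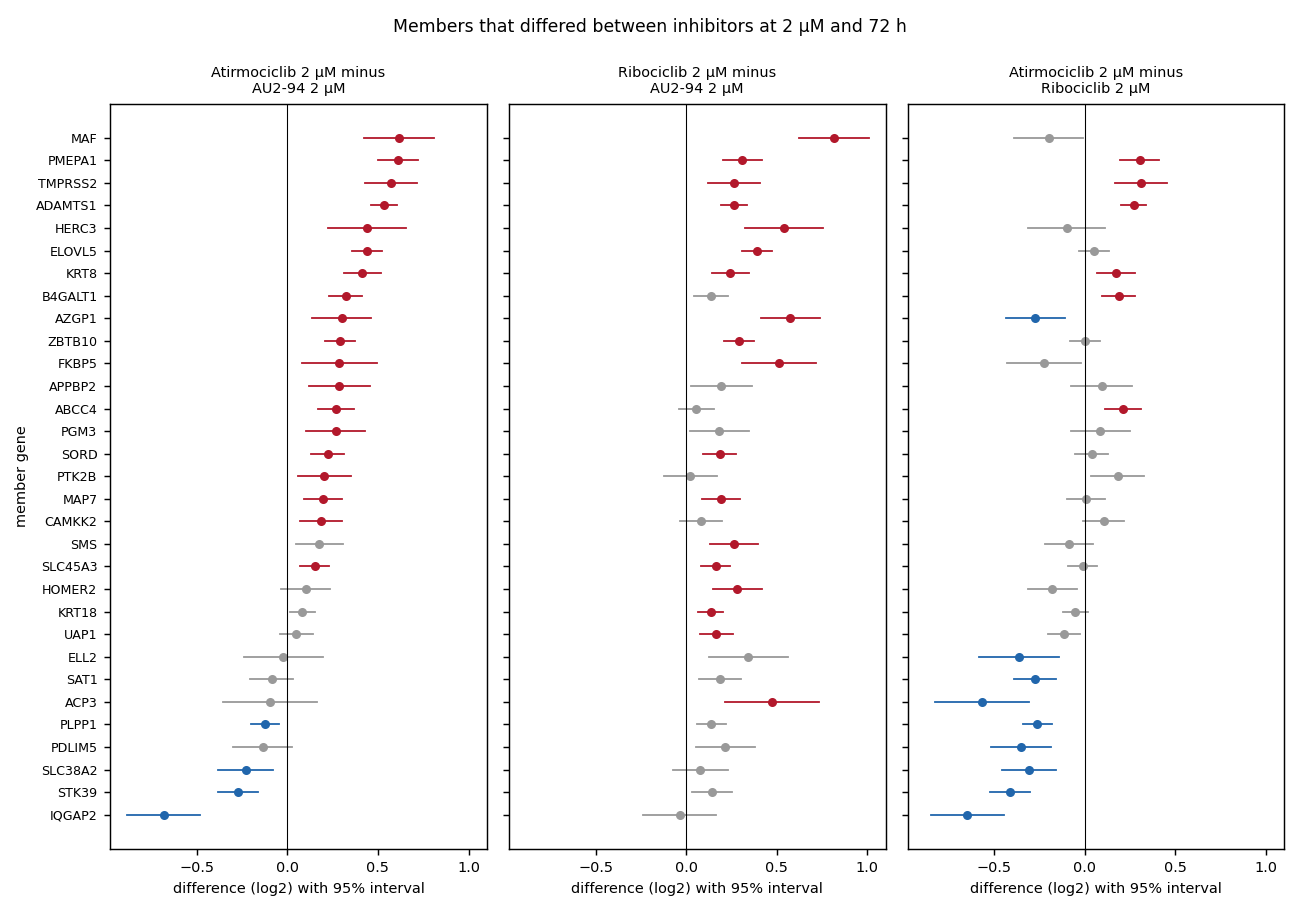
Difference between inhibitors at 2 µM and 72 h (horizontal axes, log2, point with its 95% interval) for the 31 members that passed in at least 1 of the 3 pairs. Red passed as higher and blue as lower for the inhibitor named at the top, and grey did not pass: most points of the panels against AU2-94 lie right of 0, with 19 and 18 red, and IQGAP2 lies left of 0 in both panels with atirmociclib.

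Doses were compared within an inhibitor. Between 2 µM and 1 µM of AU2-94, 0 members passed at 24 h and 0 at 72 h (all genes 0.409% and 0%). The differences of TMPRSS2 were 0.15 (95% interval 0.011 to 0.29, adjusted p = 0.579) and -0.074 (95% interval -0.22 to 0.069, adjusted p = 0.996). Counts of 0 do not show that the doses acted alike. With atirmociclib 0 passed at 24 h (all genes 0.0124%). At 72 h 7 members were higher at 2 µM and 1 was lower (all genes 1.25% and 0.936%): FKBP5 by 0.50 (95% interval 0.29 to 0.70, adjusted p = 0.0112), PMEPA1 by 0.36, ELOVL5 by 0.28, KRT8 by 0.23, SORD by 0.18, ZBTB10 by 0.16 and ADAMTS1 by 0.13 rose, and IQGAP2 fell by 0.54. ZBTB10 did not pass under the block (adjusted p = 0.0574), FKBP5 did not without replicate 1 of either dose (0.40 to 0.58), and the split was 3 and 1 with quantile normalisation. The 8 became 3 to 6 with 1 library left out, with a move of over 1.5 times without any library of the pair except replicate 2 at 2 µM.

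Another 49 androgen response genes, the kallikreins KLK2 and KLK3 among them, gave a mixed picture. In the order of treatments used for the groups of members, higher and lower were 21 and 7, 19 and 8, 23 and 7, 26 and 7, 29 and 7 at 24 h and 11 and 22, 11 and 17, 15 and 22, 20 and 15, 15 and 11 at 72 h. For this and the following lists, 14.3% to 18.6% of all genes passed higher and 13.5% to 16.2% lower at 24 h. At 72 h 14.2% to 20.9% of all genes passed higher and 15.3% to 19.8% lower. The higher share of the 49 was smaller than that of the 55 members. Members and lists were chosen with earlier results of these data known, so the difference can follow from that choice, and it was not tested. KLK3 rose by 0.31 to 0.45 at 24 h and 1.14 to 1.38 at 72 h, KLK2 by 0.48 to 0.77 and 1.05 to 1.40, NDRG1 by 1.58 to 2.28 and 2.13 to 2.38 and BMPR1B by 1.25 to 1.51 and 1.65 to 2.10. HSD17B14 was at 0.40 to 0.72 at 24 h, which did not pass, and rose by 0.89 to 1.62 in all 5 treatments at 72 h. Of 11 genes that androgen lowers, 10 passed the filter at 24 h and 10 at 72 h, and higher and lower were 5 and 4, 5 and 4, 5 and 4, 5 and 4, 5 and 4 and 3 and 4, 3 and 4, 4 and 4, 4 and 4, 3 and 5. The glucuronidating enzymes UGT2B11, UGT2B15, UGT2B17 and UGT2B28 fell in all 10 contrasts, with UGT2B15 at -3.16 to -2.84 and -1.69 to -1.32, and since these paralogs are nearly identical their counts are uncertain. Other genes of this list rose. CAMK2N1 passed higher in all 10 contrasts (0.67 to 0.83 and 0.48 to 1.11). LRRN1 and OPRK1 did so in all 5 at 24 h (1.42 to 1.62 and 1.26 to 1.69) and in none at 72 h. BCHE did so in all 5 at 72 h (0.54 to 1.20). Some members respond to glucocorticoid as well, and of 9 genes of that receptor and its shared targets, higher and lower were 2 and 1, 3 and 1, 4 and 2, 3 and 2, 3 and 2 at 24 h, where 8 passed the filter, and 3 and 2, 4 and 2, 4 and 2, 4 and 1, 5 and 2 at 72 h. TSC22D3 fell at 24 h with atirmociclib (to -0.58 and -0.86) and ribociclib (to -0.49), rose at 72 h in 4 treatments (1.01 to 1.10) and was 0.23 with atirmociclib at 2 µM (adjusted p = 0.141), and the receptor NR3C1, tested at 72 h only, was at -1.60 to -0.69 and did not pass. ZBTB16 rose (0.22 to 0.44 and 0.52 to 0.80) and the metallothionein MT2A fell (-0.42 to -0.24 and -1.06 to -0.71) in all 10 contrasts. HSP90AA1, a cytosolic chaperone that FKBP51 works with, fell in all 10 (-0.44 to -0.36 at 24 h and -0.35 to -0.15 at 72 h). Its counterpart HSP90AB1 was at -0.057 to 0.11 at 24 h, where it passed higher in 1 treatment and lower in 0. At 72 h HSP90AB1 was at -0.21 to -0.028 and passed lower in 4.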

How the data were processed

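RNA-seq libraries of LNCaP cells, 3 biological replicates in each of 12 groups, were analysed from the deposited table of normalised counts, a signal that the authors made by aligning reads with STAR 2.6.1d to GRCh38 and dividing counts by DESeq2 size factors. The values were not whole, and the annotation release, the counting tool and its strand setting are not given in the sources used here. Raw depth is therefore unknown, and values under 20 lay within 0.02 steps of whole multiples for 11.6% to 49.7% per library, so no count test was run.

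Genes were matched by identifier to GENCODE 44 (29856 of 29872). The 55 members and the gene lists were chosen with earlier results of these data known. Values by library are given for TMPRSS2 and FKBP5 and for members that led by mean change among those higher or lower in all 10 contrasts with vehicle, among those that changed direction, among those passed alike in all 5 treatments of a time point, and among differences between inhibitors. Some genes and 1 gene list are not reported here. The filter asked for 10 normalised counts or more in 3 libraries or more, which 16137 genes passed at 24 h, 16341 at 72 h and 16850 over both. limma 3.58.1 in R 4.3.3 was fitted to log2(normalised count + 1) with a mean-variance trend, 1 fit per time point over 18 libraries and 1 fit over all 36 for changes of effect and for vehicle over time. Adjusted p-values are Benjamini-Hochberg over all genes of a contrast. The test was checked on simulated data with planted log2 fold changes of 1 in size and the same dispersion setting for all genes. That check does not cover smaller changes or members with wide scatter. Tables and figures were made in Python 3.11.15 with pandas 2.3.3, numpy 2.4.6 and matplotlib 3.10.9.

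The labels give the replicate number under a batch tag, and on that ground alone an alternative fit paired libraries across groups by it. The main fits took no account of replicate number. Deviations of same-numbered libraries correlated by -0.0755 to 0.0922 at 24 h and -0.0707 to 0.0365 at 72 h over 45 pairs each. For libraries of different number and group the range was -0.0839 to 0.0829 and -0.0659 to 0.0607 over 90 pairs each. The fit with replicate number as a block was run as an alternative, beside other filters, pseudocounts, scalings and fits and each library left out in turn.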

Additional observations from a re-analysis of the deposited data

Results flagged for a closer look

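The effect of treatment differed between 24 h and 72 h by limma's test of the difference itself, over all genes, in 27 members with AU2-94 at 1 µM, 21 with AU2-94 at 2 µM, 26 with atirmociclib at 1 µM, 25 with atirmociclib at 2 µM and 23 with ribociclib. Of all genes 10.1%, 9.26%, 11.3%, 11.7% and 10.5% passed as higher at 72 h and 11.5%, 9.28%, 10.6%, 9.96% and 9.66% as lower, in that order. Passed in opposite directions at the times were 3 members, near the share of all genes (5.85%), and they are given with that difference, 72 h minus 24 h on the log2 scale. DBI, which was higher and then lower, differed by -0.61 with AU2-94 at 1 µM, -0.56 at 2 µM, -0.67 with atirmociclib at 1 µM and -0.56 at 2 µM. KRT18, also higher and then lower, differed by -0.34 and -0.31 with AU2-94 at 1 and 2 µM. STK39, lower and then higher, differed by 0.35 with AU2-94 at 2 µM. Cells for 72 h were seeded at a lower density, and time and density cannot be told apart. Groups of 3 libraries were not searched for a single library that stood apart.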

How the results depend on the processing

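Of 153 values of the 12 members given by library that passed, none changed sign under the alternatives run. All 153 passed with a pseudocount of 0.5 or 8, 151 with array weights, 149 with replicate number as a block, 143 with equal library totals, 142 without a filter or without the trend and 139 with quantile normalisation. Of the 114 values that the choice of groups in the fit can move, 4 lost their pass with all 12 groups in 1 fit and 13 with only the groups compared. A filter on a mean of at least 100 removed the scarce SGK1 and KRT19, and the 140 values left all passed. With 1 library left out 38 lost their pass in at least 1 case. Raw depth is unknown and limits the scarce members most. The block lost 21 and gained 6 passes of 1540 over all members, given beside those named, and STK39 with AU2-94 at 1 µM was then at an adjusted p of 0.0572 for the change of effect.

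Counts of members that moved by over 1.5 times follow, the cause not tested except where fewer members can meet a rule. With a log2 fold change of at least 1 also asked, higher members at 24 h were 4 and 5 with AU2-94 at 1 and 2 µM, 3 and 3 with atirmociclib and 6 with ribociclib, and at 72 h 4, 4, 6, 9 and 8, and lower members were 0 throughout. With all 12 groups in 1 fit, AU2-94 at 1 µM had 4 lower members at 24 h, and 2 differed between ribociclib and AU2-94 at 24 h. With equal totals, lower members were 5 with AU2-94 at 1 µM at each time, 2 with AU2-94 at 2 µM and 9 with each dose of atirmociclib at 72 h, while 9 differed between ribociclib and AU2-94 and 5 between atirmociclib doses. With quantile normalisation, lower members were 1 and 3 with AU2-94 at 1 µM at 24 h and 72 h and 2 at 2 µM at 72 h, while 2 differed between atirmociclib and AU2-94 at 1 µM at 24 h, 11 between ribociclib and AU2-94 at 72 h and 4 between atirmociclib doses. With a mean of at least 100, 9 were lower with atirmociclib at 1 µM at 72 h. Without a filter 3 and 6 differed between atirmociclib and AU2-94 at 1 and 2 µM at 24 h and 5 between atirmociclib doses, and without the trend 2, 6 and 4, with 9 between ribociclib and AU2-94 at 72 h. With only the compared groups in the fit, 3 differed between atirmociclib and AU2-94 at 2 µM at 24 h, 6 between ribociclib and AU2-94 at 72 h, and 3 were lower with AU2-94 at 2 µM and 1 with ribociclib at 72 h.

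With 1 library left out, lower members at 24 h were 0 to 3 with AU2-94 at 1 µM and 0 to 2 with ribociclib, and at 72 h 4 to 7 and 2 to 5 with AU2-94 at 1 and 2 µM and 1 to 3 with ribociclib. Atirmociclib and AU2-94 differed in 2 to 5 members at 1 µM and 4 to 9 at 2 µM at 24 h and in 9 to 12 at 1 µM at 72 h, ribociclib and AU2-94 in 0 to 1 at 24 h and 9 to 17 at 72 h, the atirmociclib doses in 3 to 6 at 72 h and vehicle between the times in 9 to 12.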
